A study of Mus musculus with 18 samples.

Results

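The RNAs described here are the small nucleolar RNAs (snoRNAs) and small Cajal body RNAs (scaRNAs) that were counted in alphaTC1 cells, a mouse pancreatic alpha cell line that makes glucagon. They were chosen by their summed raw counts, as all rows of biotype snoRNA or scaRNA whose raw counts summed to at least 200 over the 18 libraries. The rule kept 137 of 1558 such rows, and 500 of the 1558 had any count. The 137 held 91.1% of all snoRNA and scaRNA counts and 0.0140% of all counts. These sums ran from 202 to 7696, with a median of 570. The last rows inside the threshold were Gm25117 (206 counts), Gm23202 (202) and Snord19 (202), and the first rows outside it were Snord66 (198), Snord33 (191) and Gm26493 (190).

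The study lowered Smndc1, which encodes a splicing factor of the spliceosome, by a short hairpin RNA (shRNA) and used the empty vector as the control. In the first experiment, cells without a reporter were collected 5 days after transduction with the empty vector (3 libraries) or the Smndc1 shRNA (3 libraries). In the second, cells also received mCherry under the rat insulin promoter, and the groups were empty vector with this reporter, shRNA cells sorted as reporter-negative and shRNA cells sorted as reporter-positive (4 libraries each). The labels give no day for the second experiment, do not say whether its empty-vector cells were sorted, and do not say whether replicates were separate cultures, so the p-values here speak only to library-to-library variation, technical variation included. All 18 libraries came from 1 cell line transduced with a vector, and all were made from total RNA with a stranded kit for messenger RNA, which captures RNA by its poly(A) tail, as paired reads of 75 bases.

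Most vertebrate snoRNAs are not transcribed from promoters of their own. They lie in introns of host genes, many of which encode ribosomal proteins or translation factors, while hosts such as Gas5 and Snhg1 make long RNAs whose exons encode no conserved protein. After splicing, the lariat debranching enzyme opens the excised intron, exonucleases trim it from both ends, and bound proteins protect the snoRNA. Box C/D snoRNAs bind fibrillarin (Fbl), Nop56, Nop58 and Snu13 and guide 2'-O-methylation of ribosomal RNA, H/ACA snoRNAs bind dyskerin (Dkc1), Nop10, Nhp2 and Gar1 and guide pseudouridylation, and scaRNAs do the same for spliceosomal RNAs in Cajal bodies. Finished snoRNAs carry no poly(A) tail. Rn7sk, the RNA that holds the elongation factor P-TEFb inactive, is transcribed from its own promoter by RNA polymerase III, also ends without a poly(A) tail, and was used as a measure of how much of such RNA each library held.

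By name, biotype or sequence, 66 of the 137 were box C/D (median length 76 bases), 46 were H/ACA (median 133.5 bases) and 4 were scaRNAs, and 21 could not be assigned. An intronic origin held for most of them by position: 126 lay in an intron of a gene on the same strand in the GENCODE M21 annotation of GRCm38, the build of the files. For 5 of them (Snord34, Snord32a, Snord35a, Snora73b and Snord68) 2 genes on the strand contain the RNA, and the one with more counts was taken as the host. The 126 shared 69 hosts, 26 hosts held 2 or more (83 in all), and Gas5 (8), Snhg1 (7), Taf1d (7) and Eif4a2 (5) held most. Snord, Snora and unnamed snoRNAs of 1 host share its transcription and are not independent of each other. Box C/D RNAs ended a median of 79 bases before the 3' end of their intron (quartiles 69 and 107, 65 RNAs), and H/ACA RNAs ended 176 bases before it (quartiles 70.5 and 439.5, 39 RNAs). Only 42 of the 126 lay in introns of all host isoforms that span them. The other 84 also lay within or over an exon of another annotated isoform of the host, and for any of the 126, reads from the finished snoRNA and from unspliced host RNA cannot be told apart. The remaining 11 had no host on their strand in this annotation, among them Gm25767 and Snord104, the members with the most counts (7696 and 7670). They are called without a host below in that sense only, and hosts missing from the annotation were not searched for. In all, 8 members overlapped an exon on the opposite strand and 20 had a near-identical copy elsewhere, and their counts are uncertain for that reason.

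The sequences below, from the GENCODE transcripts, show the RNAs on which the comparisons turn. In box C/D RNAs the capitals mark box C, searched as TGATGA in the first 25 bases, and box D, searched as CTGA in the last 15. The first 4 rose in reporter-positive cells or had the most counts of a hosted RNA, and Snord104, with no host, did not.
Gm22357: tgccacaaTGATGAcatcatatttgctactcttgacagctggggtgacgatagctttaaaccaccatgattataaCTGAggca
Gm26224: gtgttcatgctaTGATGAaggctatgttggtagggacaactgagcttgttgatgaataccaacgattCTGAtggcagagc
Gm24452: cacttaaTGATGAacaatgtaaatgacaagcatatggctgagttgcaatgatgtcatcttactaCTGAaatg
Snord37: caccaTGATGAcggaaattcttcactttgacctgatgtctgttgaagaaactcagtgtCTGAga
Snord104: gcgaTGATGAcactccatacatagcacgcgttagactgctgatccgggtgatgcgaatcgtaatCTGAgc
Gm22357 (chr1:161036057-161036139, plus strand) and Gm26224 (chr1:161035394-161035473, plus strand) lie in Gas5, Gm24452 (chr19:8724531-8724602, plus strand) in Snhg1 and Snord37 (chr10:81178950-81179013, plus strand) in Eef2, the gene of the ribosomal translocation factor. Snord104 lies at chr11:106500993-106501062, plus strand. Gm23969, in Rpl7a (chr2:26911261-26911334, plus strand), had the largest fold change in reporter-positive cells. It is printed to show that it holds box D but no TGATGA in the searched window, which left it unassigned.
Gm23969: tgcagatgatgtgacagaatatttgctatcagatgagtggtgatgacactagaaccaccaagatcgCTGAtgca
In H/ACA RNAs the capitals mark ACA, searched 2 to 6 bases before the 3' end.
Gm24451: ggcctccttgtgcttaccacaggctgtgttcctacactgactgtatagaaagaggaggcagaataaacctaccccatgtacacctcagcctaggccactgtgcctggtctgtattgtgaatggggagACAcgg
Snora64: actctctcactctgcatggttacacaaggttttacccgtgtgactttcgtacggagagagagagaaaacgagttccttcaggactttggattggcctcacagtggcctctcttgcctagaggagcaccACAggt
Gm22988: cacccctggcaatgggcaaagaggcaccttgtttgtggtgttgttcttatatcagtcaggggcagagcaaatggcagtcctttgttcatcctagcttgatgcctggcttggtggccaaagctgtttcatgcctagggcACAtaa
Gm24451 lies in Nop56 (chr2:130276237-130276369, plus strand), the gene of a box C/D core protein, Snora64 in Rps2 (chr17:24720772-24720905, plus strand) and Gm22988 in Eif4a1 (chr11:69669635-69669778, minus strand), the gene of a translation initiation helicase. The last 2 are shown because they are 99.2% identical (123 of 124 positions), so that reads could come from either.
Gm25767: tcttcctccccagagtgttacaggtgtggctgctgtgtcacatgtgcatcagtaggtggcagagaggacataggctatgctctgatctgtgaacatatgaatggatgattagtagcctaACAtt
Gm23823: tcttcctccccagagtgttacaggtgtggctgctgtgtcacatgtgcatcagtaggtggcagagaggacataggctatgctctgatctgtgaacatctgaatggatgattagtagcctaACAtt
Gm25767 lies at chr5:36671658-36671781, plus strand, wholly opposite an exon of D5Ertd579e, and Gm23823 at chr14:77540642-77540765, minus strand. On the RNA's own strand, TGATGA with CTGA was found in 38.7% of the 137 and in 19.96% of all 1558 annotated sequences, and ACA in 41.6% and 45.3%. Both kinds of match stood in 5.84% of the 137, and such a match is a description of the letters, not a test of class.

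Libraries held 8084574 to 103048766 counts, and reporter-negative replicate 3 was the shallowest. Smndc1 itself, given as counts per 1000000 library counts (CPM, scaled by trimmed mean of M-values), was 10.2 ± 0.545 (SD, n = 3) in shRNA cells and 39.1 ± 3.54 (n = 3) in their controls. It was 20.1 ± 4.51 in reporter-positive, 37.0 ± 9.51 in reporter-negative and 44.5 ± 7.88 in empty-vector reporter cells (n = 4 each). By edgeR's quasi-likelihood test, the test of every adjusted p below, Smndc1 fell in the first experiment (log2 fold change -1.94, adjusted p = 0.00145) and in reporter-positive cells (-1.15, 0.00384), and in reporter-negative cells the change was -0.27 (0.378). Alpha cell markers were high in all groups: 5 of them summed to 6635 to 11257 CPM in empty-vector reporter cells, 7937 to 12223 in reporter-negative and 14596 to 19683 in reporter-positive cells, whose libraries lay wholly above both. Without the reporter the sums were 3964 to 7069 CPM in controls and 6510 to 8850 in shRNA cells. The 5 beta cell markers summed to 55.5 to 77.1, 57.2 to 81.3 and 64.1 to 93.4 CPM in the 3 reporter groups, which overlapped, and to 48.0 to 59.6 CPM without the reporter. Acinar, duct and leukocyte markers (3 each) did not exceed 18.9, 21.7 and 30.2 CPM in any library. What part the shift in alpha cell markers has in the snoRNA levels of reporter-positive cells was not tested.

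Together, the 126 hosted RNAs were at higher levels in both sorted shRNA groups than in their controls, and overlapped the controls in cells without the reporter. Their summed CPM was 41.3, 96.3, 90.5 and 79.7 in the 4 empty-vector reporter libraries, in the order of their numbers. In reporter-negative cells it was 119, 184, 164 and 142, and in reporter-positive cells 105, 229, 170 and 217. Every sorted shRNA library thus lay above every control library of the same experiment, by little in the case of reporter-positive replicate 1. Both shRNA groups were sorted, and whether the controls were is not stated, so shRNA and sorting cannot be told apart here. In the first experiment the sum was 107, 73.1 and 67.6 in controls and 73.3, 83.1 and 80.8 in shRNA cells, which overlapped. The 11 RNAs without a host summed to 28.3 ± 1.23 CPM in empty-vector reporter cells, 28.1 ± 2.94 in reporter-negative and 33.4 ± 3.25 in reporter-positive cells (SD, n = 4). Reporter-positive cells overlapped the controls only through replicate 1 (28.5 CPM). Their replicates 2 to 4 (34.7, 34.7 and 35.5) lay above every control. This sum pools unlike changes. In reporter-positive cells Gm25767 measured 9.83 to 13.4 CPM against 6.41 to 9.08 in controls, and Gm24853 1.14 to 4.37 against 4.09 to 5.87. The sum thus does not show that single RNAs without a host were unchanged.

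**Figure D1:**
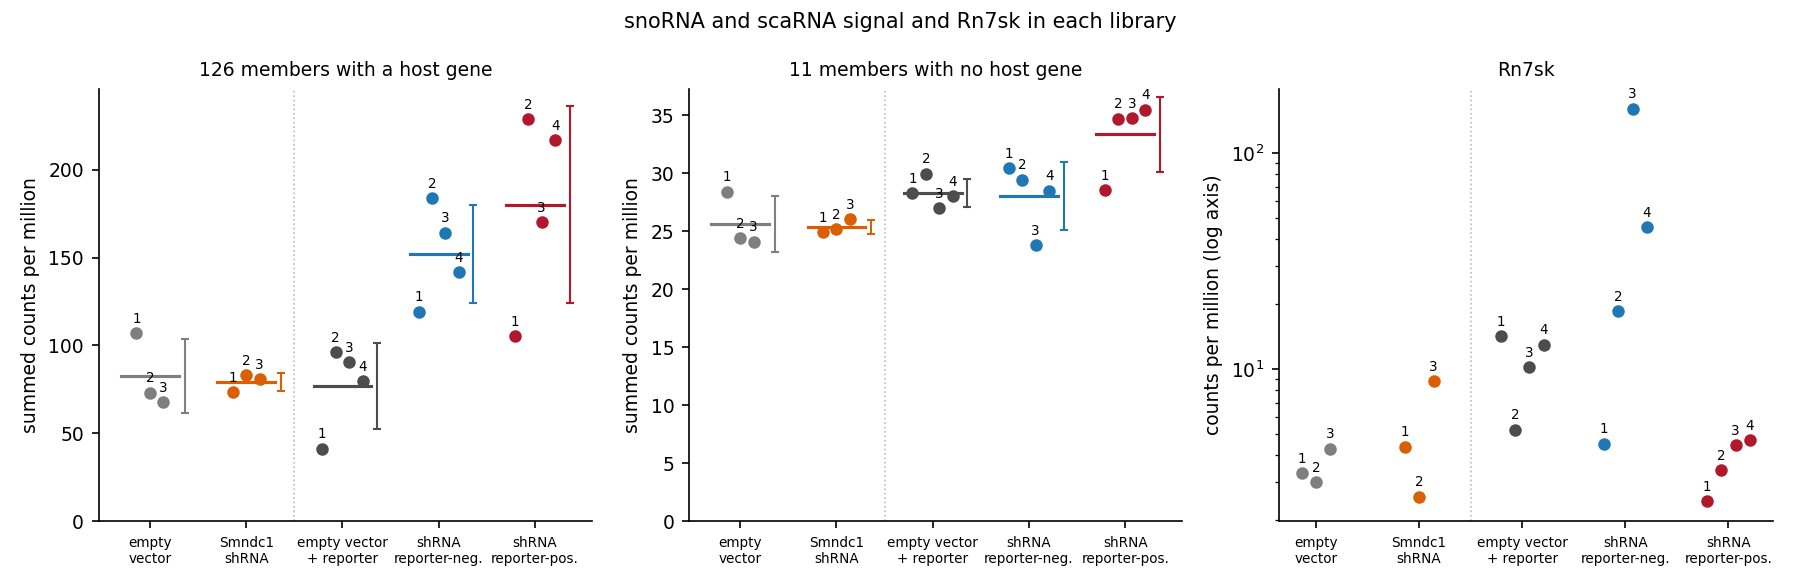
Summed CPM of the 126 members with a host gene, of the 11 without one, and CPM of Rn7sk (log axis), in each of the 18 libraries. Points are libraries with their replicate number, bars and whiskers the mean and SD (not drawn for Rn7sk), and the dotted line separates the experiments. Hosted members lie between 105 and 229 in sorted shRNA libraries and between 41.3 and 96.3 in their controls, while Rn7sk is highest in reporter-negative replicate 3 and lowest in reporter-positive replicate 1.

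Rn7sk had another order across the groups. It measured 14.2, 5.24, 10.2 and 13.0 CPM in empty-vector reporter cells, 4.53, 18.6, 161 and 45.4 in reporter-negative cells and 2.44, 3.40, 4.44 and 4.68 in reporter-positive cells. All 4 reporter-positive libraries thus held less Rn7sk than any control, and so did reporter-negative replicate 1, while the other 3 reporter-negative libraries held more than any control. The change in Rn7sk was -1.51 in reporter-positive cells (log2 fold change, adjusted p = 0.158) and 2.40 in reporter-negative cells (adjusted p = 0.0412). Between the groups without the reporter it was 0.57 (adjusted p = 0.361), with 3.29, 3.00 and 4.28 CPM in controls and 4.38, 2.57 and 8.82 in shRNA cells. Of the other RNAs without a tail that were listed for this comparison, 2 more of 14 could be tested. Rpph1, the RNA of ribonuclease P, measured 0.925 CPM on average in controls, 0.555 in reporter-negative and 0.353 in reporter-positive cells, and Rny1 0.423, 0.230 and 0.411, with no call in any comparison.

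Reporter-positive cells had higher levels of 62 of the 137 RNAs and lower levels of none, in a comparison in which 8.47% of all 18897 tested genes were called higher and 8.92% lower at an adjusted p under 0.05. The median log2 fold change over the 137 was 1.11, with a range from -1.04 to 2.36, and that of all genes was near 0 (0.001). Levels in the 4 reporter-positive libraries lay wholly above the 4 controls for 54 RNAs and wholly below for 0, beside 11.7% of all genes in each direction. All 137 had passed the filter on low counts. Since the rule summed counts over these same libraries, an RNA that is high in 1 group could enter through it, and the counts of calls are a description. Choosing the RNAs by the first experiment alone gave nearly the same median, 1.11.

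By class, the calls fell on 29 of 66 box C/D RNAs (median log2 fold change 1.24), 20 of 46 H/ACA RNAs (1.04) and 13 of the 21 unassigned (1.36). None of the 4 scaRNAs was called, and their values were -1.04 for Gm22009 in Kpna4, -0.61 for Scarna9 in Cep295, -0.35 for Gm23119 and 0.59 for Gm25492 in Bud23. The 42 RNAs that lie only in introns gave 21 calls (median 1.25), and the 84 that also touch an exon of another isoform gave 39 (median 1.19). Of the 11 with no host 2 were called (median 0.41). By length, 27 of 44 RNAs under 80 bases, 10 of 34 from 80 to under 120 bases and 25 of 59 of 120 bases or more were called higher. No test between classes was made.

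**Figure D2:**
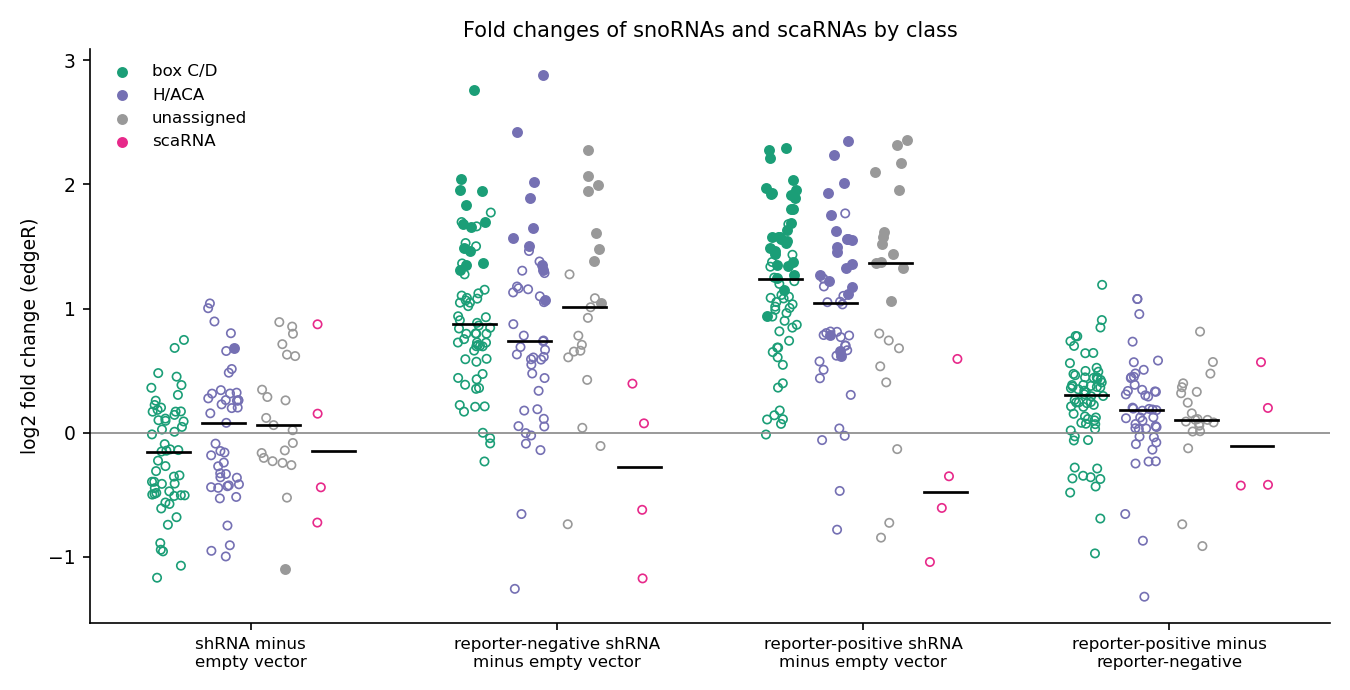
Log2 fold changes of the members in 4 comparisons, by class. Each point is 1 member, filled where its edgeR adjusted p was under 0.05, and the short bars are class medians. In reporter-positive against empty-vector cells the medians are 1.24 for box C/D, 1.04 for H/ACA and 1.36 for unassigned RNAs, and in the comparison without the reporter class medians lie between -0.15 and 0.08.

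Among single RNAs, the H/ACA RNA Gm24451 of Nop56 had the smallest p in reporter-positive cells. It measured 0.313, 0.442, 0.453 and 0.518 CPM in controls and 0.863, 3.24, 1.85 and 2.93 in reporter-positive cells, with no overlap. The log2 fold change was 2.35 ± 0.386 (SE; adjusted p = 0.00279). Its host Nop56 changed by 0.17 (adjusted p = 0.333). In reporter-negative cells Gm24451 measured 1.33, 2.29, 2.16 and 1.31 CPM, and both it (2.02, adjusted p = 0.0119) and Nop56 (0.53, 0.0178) rose.

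Gm23969 of Rpl7a, the gene of a protein of the large ribosomal subunit, measured 0.167, 0.294, 0.113 and 0.207 CPM in controls and 0.421, 1.18, 1.31 and 1.26 in reporter-positive cells. All 4 reporter-positive libraries lay above the controls, replicate 1 by the least. The log2 fold change was 2.36 ± 0.418 (adjusted p = 0.00376), and that of Rpl7a was -0.22 (adjusted p = 0.196). Both other snoRNAs of Rpl7a, Gm22879 (2.32) and Gm24134 (1.52), also rose.

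Snora64, the H/ACA RNA of Rps2, measured 0.730, 1.41, 1.17 and 1.14 CPM in controls, 2.35, 3.56, 3.01 and 2.50 in reporter-negative cells and 1.85, 3.35, 3.76 and 4.22 in reporter-positive cells. Neither shRNA group overlapped the controls. The change was 1.55 ± 0.285 in reporter-positive (adjusted p = 0.00446) and 1.35 ± 0.288 in reporter-negative cells (adjusted p = 0.0145), with Rps2 at -0.27 (0.241) and 0.05 (0.837). In cells without the reporter Snora64 was at 1.02 ± 0.196 CPM in controls and 1.13 ± 0.152 in shRNA cells (SD, n = 3), a log2 difference of 0.16 (adjusted p = 0.743).

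Snord37 of Eef2 was among the RNAs with the lowest levels in controls, at 0.0625, 0.0883, 0.162 and 0.0828 CPM. It measured 0.366, 0.888, 0.962 and 0.635 CPM in reporter-negative and 0.316, 0.523, 0.436 and 0.718 in reporter-positive cells, all above the controls. The change was 2.76 ± 0.451 (adjusted p = 0.00801) and 2.28 ± 0.447 (adjusted p = 0.00588), and Eef2 itself was at -0.17 and -0.21, with no call. A single count was worth 0.0208 CPM in the first control library and 0.120 CPM in reporter-negative replicate 3, so low values rest on few reads.

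**Figure D3:**
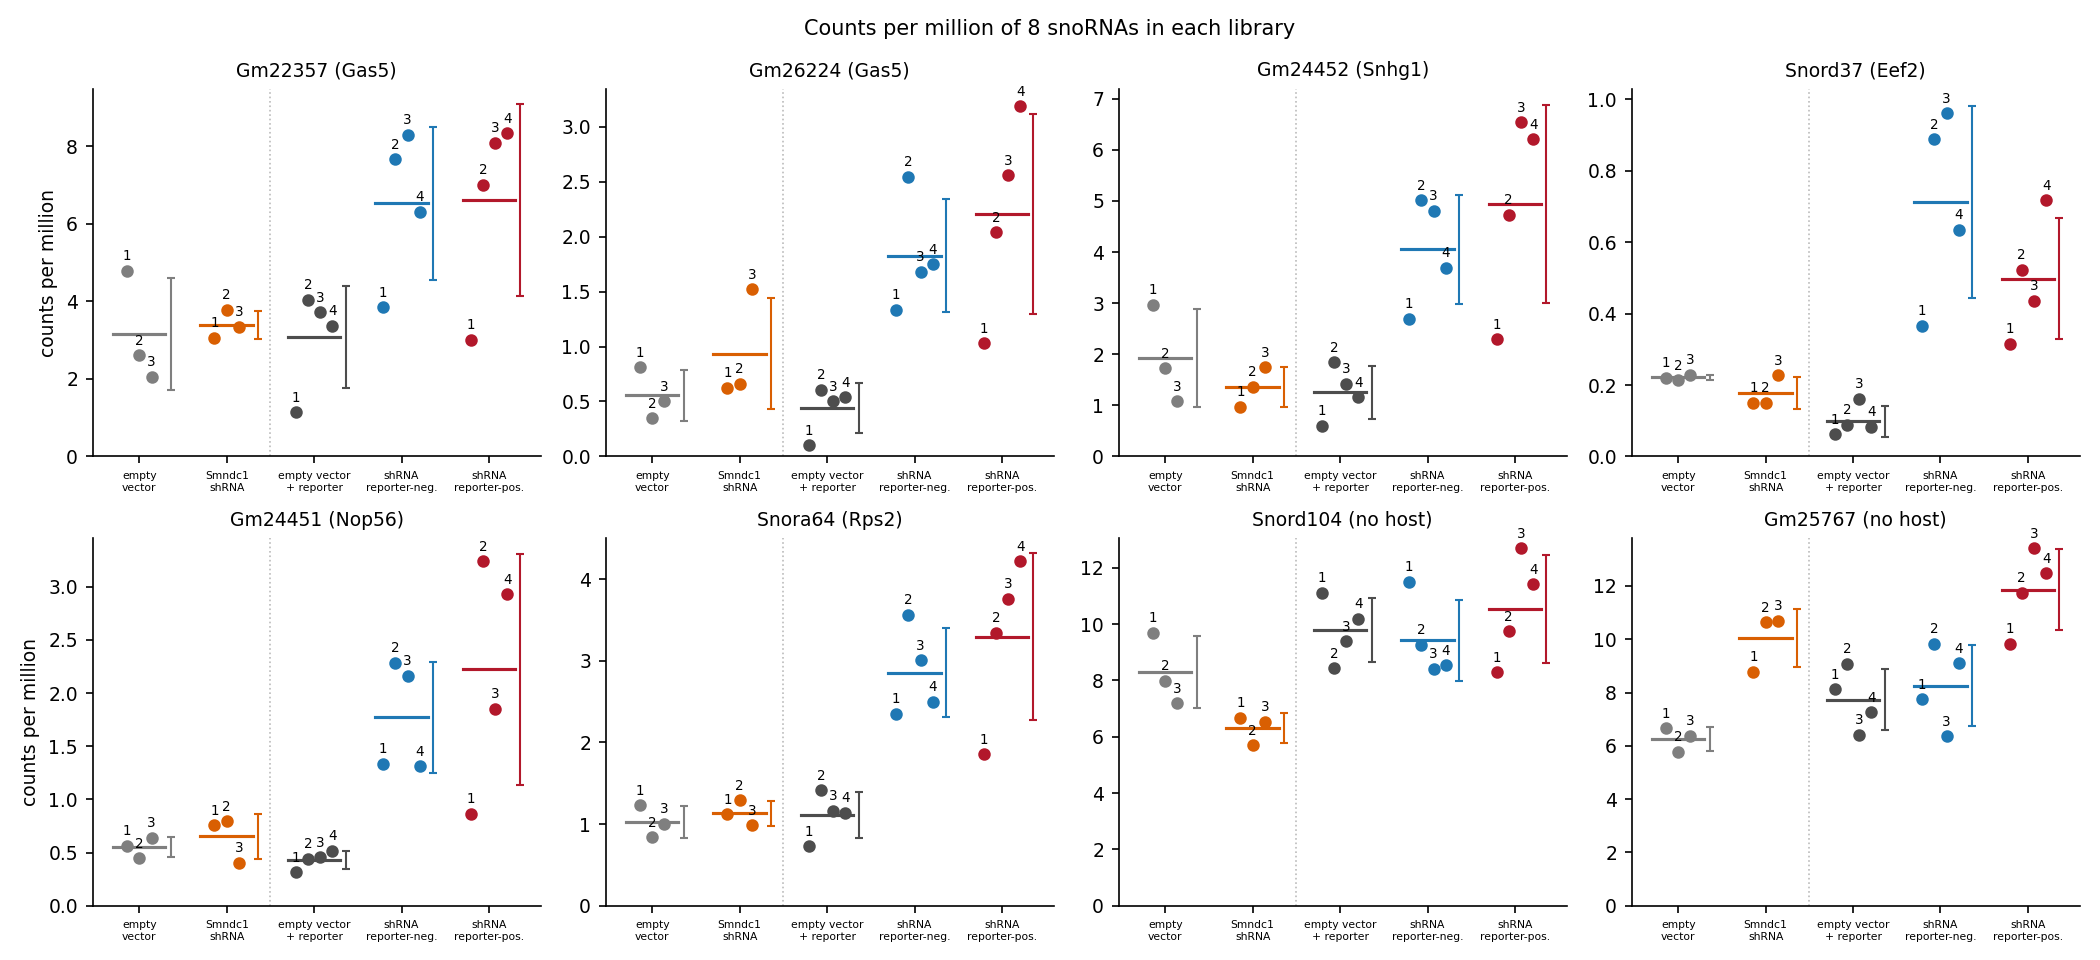
CPM of 8 snoRNAs in each of the 18 libraries, with the host gene in brackets. Points are libraries with their replicate number, bars and whiskers the mean and SD, and the dotted line separates the experiments. Gm26224, Gm24452, Snord37, Gm24451 and Snora64 lie above the empty-vector reporter libraries in all 8 sorted shRNA libraries, Gm22357 overlaps them, Snord104 stays between 8.30 and 12.7 in the second experiment, and Gm25767 rises in shRNA cells without the reporter and in reporter-positive cells.

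Host by host, the Gas5 snoRNAs were the largest family. Gas5 RNA itself measured 31.0, 73.8, 52.7 and 60.7 CPM in controls, 64.5, 141, 138 and 145 in reporter-negative and 70.2, 120, 121 and 132 in reporter-positive cells, and it rose in both (1.16, adjusted p = 0.0205, and 1.02, adjusted p = 0.0256). Of its 8 snoRNAs 5 rose in reporter-positive cells, and the 8 fold changes ran from 1.10 to 2.29, each above that of the host. Gm26224 had the largest: 0.104, 0.608, 0.502 and 0.538 CPM in controls against 1.03, 2.04, 2.56 and 3.19 in reporter-positive cells (2.29 ± 0.444, adjusted p = 0.00549). Gm22357, the Gas5 snoRNA with the most counts, measured 1.15, 4.04, 3.72 and 3.37 CPM in controls and 3.01, 7.01, 8.09 and 8.33 in reporter-positive cells, where replicate 1 lay within the controls, and 1.10 ± 0.379 had an adjusted p of 0.0585. Snord78 (1.15 ± 0.371, adjusted p = 0.0463) and Gm23212 (1.25 ± 0.365, adjusted p = 0.0322) were called although their groups also overlapped.

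Most Snhg1 snoRNAs rose without a call in their host. Snhg1 RNA changed by 0.31 in reporter-positive cells (adjusted p = 0.429), and 6 of its 7 snoRNAs were called higher, with fold changes of all 7 from 0.96 to 1.95. The box C/D RNA Gm24452 measured 0.605, 1.84, 1.43 and 1.16 CPM in controls and 2.30, 4.73, 6.54 and 6.21 in reporter-positive cells, with no overlap (1.95 ± 0.365, adjusted p = 0.00474). Among the hosts with 3 or more members are 2 genes of translation initiation helicases. All 5 snoRNAs of Eif4a2 and all 3 of Eif4a1 were called higher, with medians of 1.58 and 1.62, beside changes of 0.25 (adjusted p = 0.176) and -0.35 (adjusted p = 0.0552) in the hosts. The single RNAs of 2 further initiation factor genes, Snora28 of Eif5 (1.06, adjusted p = 0.179) and Gm23262 of Eif4g2 (0.74, adjusted p = 0.248), were not called.

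Rpl13a, taken as the host of 3 snoRNAs, fell in reporter-positive cells (-0.61, adjusted p = 0.0161), from 35.3, 22.2, 27.4 and 25.4 CPM in controls to 18.6, 15.2, 19.6 and 18.8, and Snord32a (1.91), Snord34 (1.80) and Snord35a (1.64) all rose. Each of these 3 lies within 2 annotated genes on its strand, of which Rpl13a had the more counts, so the contrast rests on that choice of host. None of the 7 snoRNAs of Taf1d, which encodes a subunit of the RNA polymerase I factor SL1, was called in reporter-positive cells (0.30 to 1.03), where Taf1d was at 0.67 (adjusted p = 0.0814). In reporter-negative cells Taf1d rose (1.02, adjusted p = 0.0233) and none of the 7 was called (up to 0.74). The 3 snoRNAs of Rpsa gave no call either (-0.03 to 0.81). Genes named Rps or Rpl together hosted 44 members, of which 22 rose, and hosts annotated as processed transcripts hosted 25, of which 15 rose, against 44 of 100 in protein-coding hosts.

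**Figure D4:**
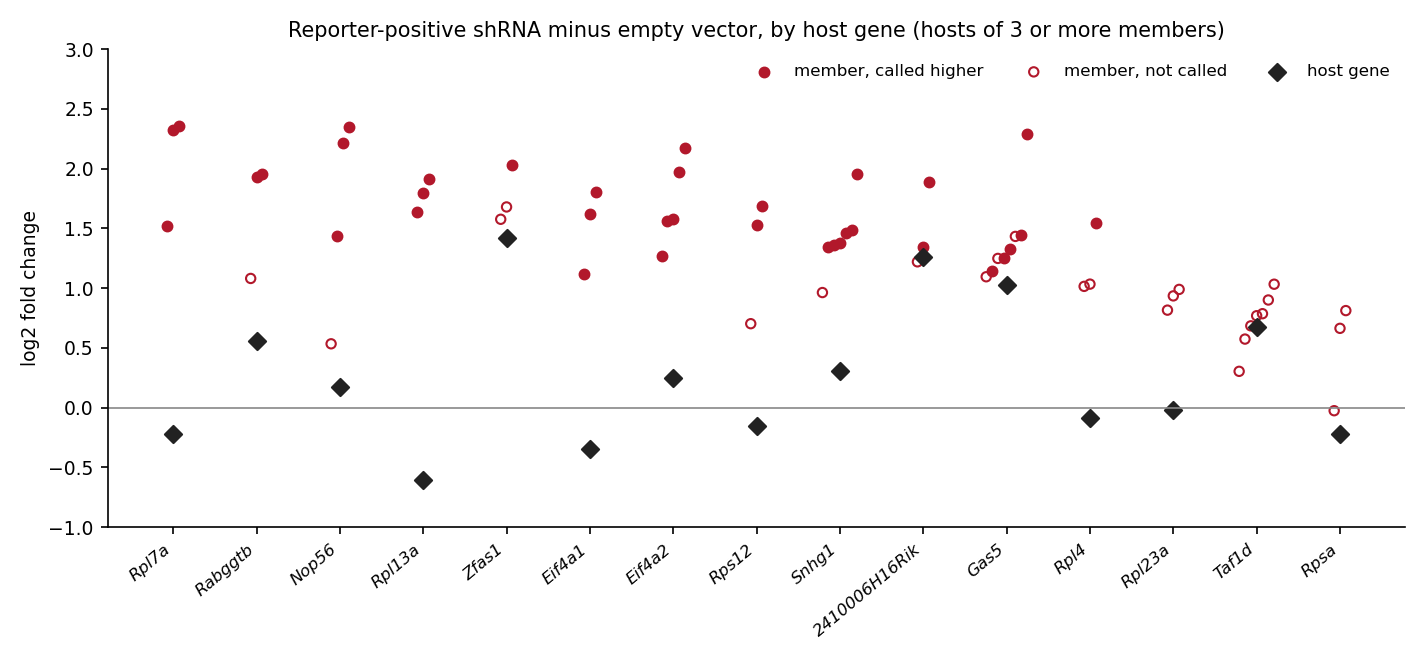
Log2 fold changes in reporter-positive shRNA cells against empty-vector reporter cells for the 15 hosts with 3 or more members. Circles are members, filled where called higher, and diamonds are the host genes. All 3 members lie above the diamond for Rpl7a, Rpl13a, Eif4a1 and Rpl23a, all 8 lie above it for Gas5, and 5 of 7 for Taf1d.

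Over all hosts, most RNAs lay in hosts that were not called, whether or not the RNA itself was called higher. Of the 60 hosted RNAs called higher in reporter-positive cells, the host was also called higher for 12, called lower for 3 (those of Rpl13a) and not called for 45. For the hosted RNAs that were not called, these numbers were 10, 3 and 53. The fold change was larger than the host's for 115 of the 126 hosted RNAs, with a median of 1.21 for the RNAs and 0.08 for their hosts counted once per RNA. Of the 69 hosts 8 were higher and 3 lower, with a median of -0.07, beside 8.47% and 8.92% of all genes. In reporter-negative cells 12 hosts were higher and 2 lower (median -0.02), beside 8.17% and 5.69% of all genes. In reporter-negative cells the host was also higher for 6 of 30 hosted RNAs called and not called for 24. For RNAs not called there, the host was higher for 30, lower for 2 and not called for 64. In all, 95 of 126 RNAs lay above their host in these cells. The difference between RNA and host was not tested as such, and RNAs of 1 host share its value.

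**Figure D5:**
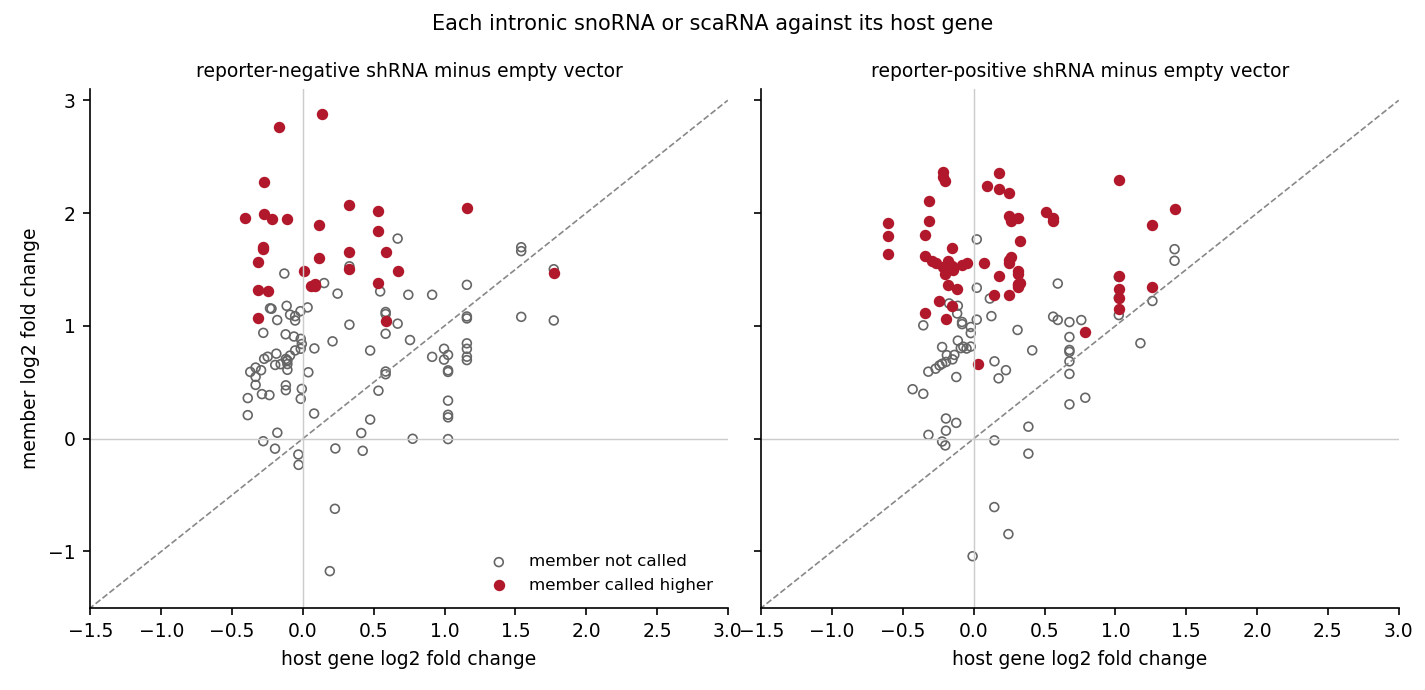
Log2 fold change of each of the 126 hosted members (y axis) against that of its host gene (x axis), in reporter-negative and in reporter-positive shRNA cells against empty-vector reporter cells. Red points were called higher, open points were not, and the dashed line marks equal change. In reporter-positive cells 115 of 126 points lie above the line, and in reporter-negative cells 95.

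Reporter-negative cells had higher levels of 31 of the 137 RNAs and lower levels of none, where 8.17% of genes were called higher and 5.69% lower. The median was 0.84 (range -1.26 to 2.88), and 50 RNAs lay wholly above the controls and 0 wholly below, beside 7.24% and 7.2% of all genes. The calls fell on 13 of 66 box C/D, 10 of 46 H/ACA and 8 of 21 unassigned RNAs. The highest fold change was that of Gm22748 in Odc1, the gene of ornithine decarboxylase, with 0.0417, 0.167, 0.372 and 0.124 CPM in controls and 0.733, 1.23, 2.52 and 1.23 in reporter-negative cells (2.88 ± 0.531, adjusted p = 0.0109). None of the 31 was called with log2 Rn7sk CPM as a covariate, when 6 of all genes were called higher and 2 lower (1544 and 1076 without it), or without reporter-negative replicates 3 and 4, when 4 genes were called higher and 0 lower. The loss of calls thus extended to nearly all genes, and the medians of the 137 in these fits were 0.87 and 0.90. In reporter-positive cells the covariate left 53 RNAs called higher and 1 lower, beside 1661 genes higher and 1924 lower.

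Both comparisons use the same 4 control libraries, and the first of these was the lowest of all 12 libraries for 92 of the 137 RNAs. Reporter-positive replicate 2 was the highest for 54, reporter-negative replicate 3 for 29 and reporter-positive replicate 4 for 28. Without empty-vector reporter replicate 1, the calls numbered 29 in reporter-positive cells, beside 755 of all genes called higher (1600 with all libraries), and 11 in reporter-negative cells, beside 359 (1544 with all libraries). Side by side, 28 RNAs were called higher in both, which is 90.3% of the reporter-negative and 45.2% of the reporter-positive calls. Shared controls can raise such an overlap for any gene, and the overlap over all genes is not given here. These shares are thus not read as a trait of these RNAs. The 3 called only in reporter-negative cells were Snord14d (1.35) and Snord14e (1.37) of Hspa8 and Snora17 (2.42). Counts of calls moved with single libraries, for these RNAs and for all genes. In reporter-positive cells, 23 RNAs and 646 genes were called higher without replicate 2 of that group, 40 and 1009 without replicate 3, 29 and 962 without replicate 4, and 41 and 889 without empty-vector replicate 3. In reporter-negative cells, 13 RNAs and 654 genes were called higher without empty-vector replicate 3, 5 and 304 without reporter-negative replicate 2, 13 and 771 without replicate 3, 5 and 127 without replicate 4, and 53 and 3036 without replicate 1. All 8 RNAs with the smallest p in reporter-positive cells (Gm24451, Gm23969, Snora64, Gm24452, Gm26224, Gm22077, Gm26447 and Gm22988) were called in all 20 other fits of that comparison. They were picked by p in these same libraries, and some of these fits leave out only reporter-negative libraries. Their calls are thus not a separate test.

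Few differences were called between reporter-positive and reporter-negative cells. No RNA was called without pairing (0.0% of all 18897 genes were, in either direction), 6 of 137 had an unadjusted p under 0.05, DESeq2 called none of the 137, and the median was 0.22. Levels lay wholly above for 2 RNAs and wholly below for 0, beside 3.33% and 3.25% of genes. Same-numbered libraries of these groups deviated together, and with the number as a block over the 8 sorted libraries 1 of 131 tested RNAs was higher and 1 lower, beside 3.71% and 4.72% of 17994 genes. The one that was higher, Snora2b of Kansl2, measured 0.863, 0.853, 0.481 and 0.754 CPM in reporter-negative and 1.20, 1.94, 1.14 and 1.72 in reporter-positive cells (0.99 ± 0.284, adjusted p = 0.0447). The one that was lower, Snora17, measured 0.497, 1.26, 0.962 and 1.83 CPM in reporter-negative cells and 0.211, 0.366, 0.572 and 0.690 in reporter-positive cells (-1.34 ± 0.336, adjusted p = 0.0254). Rn7sk was lower in reporter-positive cells in that fit, by a log2 fold change of -3.05 (adjusted p = 0.00138). Group means were highest in reporter-positive, then in reporter-negative cells, then in controls for 92 of the 137 RNAs. By replicate number, however, the summed level of the 137 in reporter-positive cells was 0.894, 1.24, 1.09 and 1.48 times that in reporter-negative cells.

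The shRNA cells without the reporter, which had the lowest Smndc1, gave almost no calls among these RNAs. Of 123 RNAs tested, 1 was higher and 1 lower, where 7.22% of 18202 genes were called higher and 7.5% lower, and the median was -0.09. Levels lay wholly above the controls for 8 RNAs and wholly below for 11, beside 19.7% and 19.8% of genes. None of the 112 hosted RNAs tested was called by edgeR (5 had an unadjusted p under 0.05), and neither called RNA had a host on its strand. Of the 123 RNAs, DESeq2 called 2 higher and 1 lower. Gm26224 measured 0.811, 0.350 and 0.503 CPM in controls and 0.625, 0.661 and 1.52 in shRNA cells (0.75 ± 0.472, adjusted p = 0.306), and Gm24452 measured 2.97, 1.73 and 1.08 and then 0.970, 1.37 and 1.75 (-0.50 ± 0.398, adjusted p = 0.418). Both overlapped. Medians of the families were -0.20 for Gas5, -0.49 for Snhg1, 0.10 for Eif4a2 and 0.24 for Taf1d. Among the 69 hosts none rose and Ptcd3 (-0.47), Tomm20 (-0.60) and Bud23 (-0.47) fell.

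The change in cells without the reporter was smaller than that in reporter-positive cells for 125 of the 137 RNAs, with a median difference of -1.15, but none of these differences was called in a model of both experiments. There 56 RNAs had an unadjusted p under 0.05, the smallest adjusted p was 0.789, and 0.0% of 20036 genes were called in either direction. The summed level in the controls was 108 ± 23.7 CPM (SD, n = 3) without and 105 ± 24.98 CPM (n = 4) with the reporter. These CPM were scaled within each experiment. Experiment, sorting and reporter cannot be told apart in this difference. Nor can the day, which is not given for the second experiment, or the degree of Smndc1 loss. The log2 fold change of Smndc1 was -1.94 without the reporter and -1.15 in reporter-positive cells.

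The 2 RNAs called in cells without the reporter have no annotated host. Gm25767 measured 6.66, 5.78 and 6.38 CPM in controls and 8.77, 10.6 and 10.7 in shRNA cells, without overlap (0.68 ± 0.163, adjusted p = 0.0286). Its near-identical copy Gm23823 measured 2.06, 1.44 and 1.01 and then 2.85, 2.87 and 3.32 (1.00 ± 0.292, adjusted p = 0.0502). Both also rose in reporter-positive cells (0.62 ± 0.169, adjusted p = 0.0253, and 0.78 ± 0.228, adjusted p = 0.0315) and were at 0.11 and 0.44 in reporter-negative cells, with no call. The gene opposite Gm25767, D5Ertd579e, changed by -0.11 in cells without the reporter (adjusted p = 0.601). Gm24853 fell, from 5.40, 5.14 and 5.79 CPM to 3.13, 2.81 and 1.65 (-1.10 ± 0.257, adjusted p = 0.0263). It lies wholly opposite an exon of Synj2bp, which encodes a mitochondrial outer membrane protein and fell in the same cells (-0.96, adjusted p = 0.0141) and in both sorted groups (-0.66 in each), and how the counting treated strand is not given in the sources used here. Both calls in cells without the reporter were lost without control replicate 2 or 3 or shRNA replicate 2, and that of Gm24853 also without control replicate 1.

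Snord104, a box C/D RNA without an annotated host, overlapped between the groups of the second experiment. It measured 11.1, 8.44, 9.39 and 10.2 CPM in controls, 11.5, 9.27, 8.41 and 8.54 in reporter-negative and 8.30, 9.76, 12.7 and 11.4 in reporter-positive cells. The log2 fold change was 0.11 in reporter-positive cells, with a 95% interval from -0.22 to 0.43. Per kilobase of its length it had 140 CPM in empty-vector reporter cells, against 62.3 CPM per kilobase for Gm25767, the RNA with the most counts, and 37.0 CPM per kilobase for Gm22357, the hosted RNA with the most counts.

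Among genes of the snoRNA particles, single members were called. Of all genes tested, 7.22% were called higher and 7.5% lower without the reporter. The shares were 8.17% and 5.69% in reporter-negative and 8.47% and 8.92% in reporter-positive cells. A single call in so short a list is thus not read as a change of the list. Of the 4 box C/D core proteins Nop56 (0.53) and Nop58 (0.42, adjusted p = 0.0306) rose in reporter-negative cells, and Fbl, the methyltransferase, fell in reporter-positive cells (-0.41, adjusted p = 0.0214). Of the 4 H/ACA core proteins Nhp2 fell in shRNA cells without the reporter, from 112 to 51.1 CPM on average (-1.13, adjusted p = 0.0382), and none was called in the sorted groups. Among 11 assembly factors, 3 fell in reporter-positive cells, Pih1d1 (-0.88, adjusted p = 0.00208) and Ruvbl2 (-0.81, 0.00151), both of the chaperone complex that assembles box C/D particles, and Shq1 (-0.64, 0.0167), the chaperone of dyskerin, and Rpap3 rose (0.34, 0.0212). The same 3 fell in shRNA cells without the reporter, at -0.66, -0.83 and -0.62. In reporter-negative cells Pih1d1 fell (-0.65, 0.0139) and Nufip1 rose (0.52, 0.0316).

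The other lists gave few calls too, beside the same shares of all genes. Of 12 tested genes for trimming and turnover, Dbr1, the lariat debranching enzyme, rose in reporter-negative cells (0.60, adjusted p = 0.0336). Parn, a deadenylase that trims H/ACA RNAs and scaRNAs, fell in shRNA cells without the reporter (-0.55, 0.0351) and reporter-positive cells (-0.58, 0.0122). Of 4 Cajal body genes, Coil rose in cells without the reporter (0.41, 0.0474), Wrap53, which brings scaRNAs to the body, in reporter-negative cells (0.82, 0.0289) and Sart3 in reporter-positive cells (0.30, 0.0373). Among 4 tested nuclear long noncoding RNAs, none was called in cells without the reporter, Malat1 rose with the snoRNAs in both sorted groups, from 204 CPM in controls to 573 in reporter-negative (1.49, 0.0112) and 514 in reporter-positive cells (1.33, 0.00779), and Kcnq1ot1 in reporter-positive cells (0.92, 0.0442). What part Malat1 and other nuclear RNA have in the snoRNA levels was not tested.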

How the data were processed

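Poly(A)-based RNA libraries of alphaTC1 cells (18 libraries, 5 groups) were analysed from raw counts. The authors deposited whole-number counts per gene, 1 table per experiment. STAR 2.7.5a, Picard 2.19.2, DESeq2 1.30.0 and GRCm38 (mm10) are named in the submitters' processing notes. The counting program, its strand setting and its treatment of reads that overlap 2 genes (reads in introns included) were not given in the sources used. No per-sample column was left unused.

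The RNAs and the gene lists were chosen with earlier results of these data known. Hosts were taken as the same-strand gene with the most counts that contains the RNA in GENCODE M21, in which all 137 have the files' coordinates. Each experiment was fitted over all its libraries with edgeR 4.0.16 (filterByExpr, trimmed mean of M-values, quasi-likelihood test, Benjamini-Hochberg over all genes tested, threshold 0.05). The test was also run on simulated counts with the same spread for every gene and no library effect beyond depth. That run cannot show how the test behaves on libraries as uneven as these. CPM are counts scaled to 1000000 per library, with library sizes adjusted by trimmed mean of M-values within each experiment. Other fits used relative log expression factors, DESeq2 1.42.0, no filter, a replicate block, log2 Rn7sk CPM, fewer libraries or thresholds of 100 and 400 summed counts. The difference between the experiments' effects, the paired fit of the 8 sorted libraries and the fit without 4 libraries were added after seeing the data. Single RNAs were named by summed count (10), by smallest p among calls (8 per comparison) and at the threshold (3 on either side), with their hosts. Listed genes were named where called, at most 6 per list. RNAs outside these rules (scaRNAs, the paired calls, the 3 called in 1 group and those of hosts with 3 or more) were chosen after their values were seen.

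Same-numbered reporter-positive and reporter-negative libraries deviated together from their group means (r = 0.62, 0.35, 0.14 and 0.31). Different-numbered libraries of these groups gave r from -0.47 to 0.28, a range that holds the value of replicate 3. The labels do not say what a number marks, so pairing by number is an assumption. Same-numbered empty-vector reporter libraries also deviated with the sorted libraries in replicates 1 and 2 (r = 0.28 and 0.49 with reporter-negative, 0.26 and 0.43 with reporter-positive cells). In replicates 3 and 4 they did not (-0.20 and -0.29, -0.03 and -0.05). Different-numbered empty-vector and sorted libraries gave r from -0.46 to 0.37. The main fits did not block on the number.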

Additional observations from a re-analysis of the deposited data

Results flagged for a closer look

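Among the single RNAs named, 1 library stood far from the others of its group: reporter-positive replicate 1 held 0.421 CPM of Gm23969, the Rpl7a snoRNA, against 1.18 to 1.31 CPM in the other 3. Such a gap arises by chance in about 1 of 20 groups (5%), and many groups were looked at, so 1 gap is not unusual. The 0.421 CPM rested on 20 counts. That library also had the lowest summed snoRNA level and the lowest Rn7sk of its group.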

How the results depend on the processing

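No named call reversed under any alternative. Of 342 repeats of the named calls, 296 held and 46 were lost. Medians over the RNAs kept their sign in all fits of the second experiment.

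Higher calls in reporter-negative cells (31) numbered 52 with DESeq2, 58 with the replicate block (1 lower), and 0 with log2 Rn7sk as covariate, without reporter-negative replicates 3 and 4, without 2 to 4, and without these 3 and empty-vector replicate 1. The last 2 leave 1 reporter-negative library, assumed to vary like the other groups, and no gene was called in them. All genes higher (1544) numbered 2421 with the block, 6 with Rn7sk, 4 without replicates 3 and 4, and 0 in the other 2. All genes lower (1076) numbered 1619 with DESeq2, 1700 unfiltered, 2176 with the block, 2 with Rn7sk and 0 in the other 3. In reporter-positive cells (62 higher) the block gave 81, with 2508 genes higher and 2571 lower. Rn7sk gave 1 RNA lower, and leaving out those 4 libraries gave 33 RNAs higher, 832 genes higher and 959 lower. Between the sorted groups (0 genes) DESeq2 gave 107 genes higher and 205 lower, no filter 39 and 111, the block over 12 libraries 22 and 56, and over 8 libraries 667 and 850, with 1 RNA each way. In cells without the reporter (1315 genes higher, 1366 lower) DESeq2 gave 2027 higher, and no filter 2024 and 2141. Both gave 2 RNAs higher, as did a threshold of 100 counts. No filter gave 1 and 4 genes and 1 RNA lower for the difference of effects. The cause of these moves was not tested, beyond fewer libraries.

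Leaving out 1 library gave, in cells without the reporter, 0 to 2 RNAs higher and 0 to 1 lower, 71 to 1547 genes higher, 110 to 1789 lower and medians from -0.21 to 0.14. It gave 5 to 53 RNAs higher and 0 to 1 lower in reporter-negative cells (genes 127 to 3036 and 32 to 2795, medians 0.72 to 1.00). It gave 23 to 73 higher and 0 lower in reporter-positive cells (genes 646 to 2175 and 612 to 2071, medians 0.97 to 1.32). Between sorted groups it gave 0 RNAs, 0 to 220 genes higher, 0 to 297 lower and medians 0.08 to 0.40. For the difference of effects it gave 0 calls and medians -1.33 to -0.96. In the first experiment same-numbered libraries gave r = -0.03, -0.01 and 0.26, and the replicate block there moved no count by over 1.5 times. Depth limits low RNAs most in reporter-negative replicate 3, where 3 counts are 0.361 CPM.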
